A study of Mus musculus with 5 samples.

Results

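RNA of sorted polymorphonuclear myeloid-derived suppressor cells (PMN-MDSCs) from the lungs of wild-type mice was measured in 3 libraries, and their absolute expression profile is described here. All rows of the expression table with a mean of at least 1 TPM (transcripts per 1000000) over the 3 lung libraries were taken, leaving out rows whose gene symbol had become a calendar date. These 15621 genes of 55276 rows are called members. They held 99.6%, 99.5% and 99.5% of the TPM of lung libraries 1, 2 and 3. Tmem252 and Gm12246, at a mean of 1.0000 and 1.0002 TPM, were just inside the limit, and Gm50394 and Gm26648, at 0.9996 and 0.9994 TPM, were just outside.

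The series also holds 2 libraries of PMN-MDSCs sorted from tumors, which are not described here. The labels give all samples as primary cells of wild-type mice, with at least 2000000 sorted cells per RNA extraction and 20000000 paired reads per library. Which markers the cells were sorted by, and the strain, age, sex and tumor of the mice, are not stated in the labels. Nothing in the labels says that the 3 lung libraries came from separate animals, and the SDs below (n = 3 throughout) may therefore hold technical variation only. A TPM value is divided by transcript length and is a share of a library total of 1000000, and levels can thus be set side by side between genes. Since read counts are lost in TPM, the depth of a value is unknown and no counting error can be given, and an exact 0 is reported as listed at 0. In bulk RNA of sorted cells, fewer cells of a type and less RNA per cell cannot be told apart.

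Neutrophils are short-lived granulocytes of the bone marrow that store antimicrobial proteins in several kinds of granules, made one after the other as the cell matures. They follow chemokines and bacterial peptides into tissues, where they engulf microbes, make reactive oxygen species and secrete cytokines. PMN-MDSCs are cells of neutrophil form found in tumor-bearing hosts and defined by their ability to suppress T cells, through arginase, reactive oxygen species, prostaglandins and other means, and they share nearly all surface markers with ordinary neutrophils.

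All 6 genes used to mark the neutrophil lineage were members, and in each library 3 of them, S100a9, S100a8 and Il1b, ranked among the 10 most abundant members. S100a9 and S100a8 encode the subunits of calprotectin, a calcium- and zinc-binding alarmin of the neutrophil cytosol. S100a9 was listed at 21889, 26811 and 15674 TPM in libraries 1, 2 and 3, and S100a8 at 17209, 18258 and 10842 TPM. Both were highest in library 2 and lowest in library 3, and the ratio of S100a9 to S100a8 lay between 1.27 and 1.47. Il1b, the inflammatory cytokine interleukin 1 beta, was the tenth member by abundance in every library, at 5432, 6423 and 5433 TPM. Csf3r, the receptor for the neutrophil growth factor G-CSF, stood at rank 32 with 1868, 2514 and 2532 TPM, lowest in library 1. Cxcr2, the receptor for neutrophil-attracting chemokines, stood at rank 175 with 692, 679.9 and 746 TPM, a coefficient of variation (CV, the SD as a percentage of the mean) of 4.98%. Ly6g, the surface antigen of mouse neutrophils, stood at rank 469 with 255, 395 and 213 TPM and was highest in library 2. The labelled lineage thus had its markers at high levels in every lung library, and these genes do not separate suppressive from ordinary neutrophils.

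**Figure D1:**
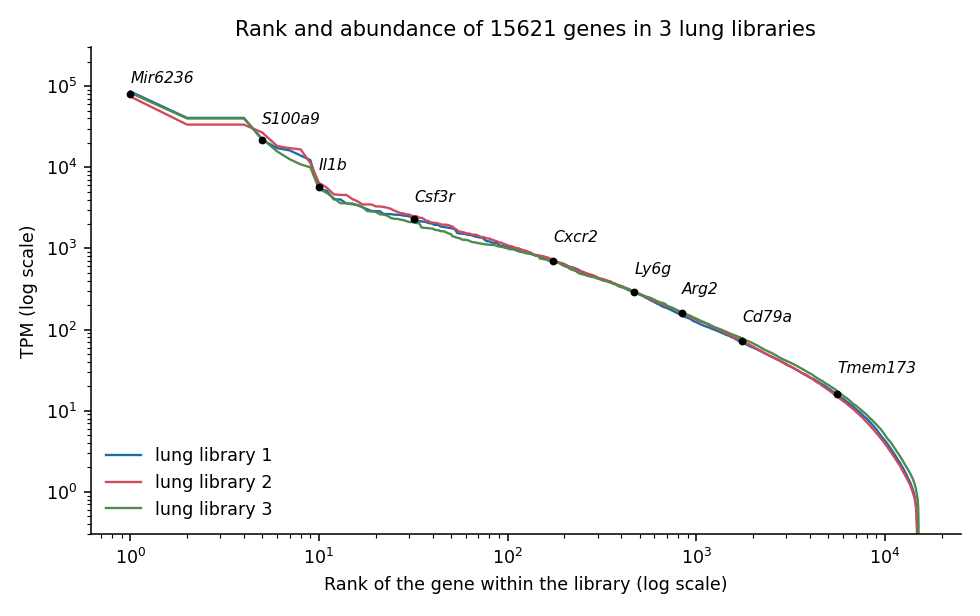
TPM (log scale) against the rank of a gene within its library (log scale) for the 15621 members, with 1 line for each lung library and black points for 9 genes at their mean TPM and their rank by mean TPM. The 3 lines lie close together, and library 2 is lowest over the first 4 ranks. Past about rank 10 library 3 runs below the others, and from about rank 1000 on it runs above them.

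The 4 rows at the top of the profile were not protein-coding genes. Mir6236, annotated in GENCODE M21 as a microRNA gene, was listed at 85829, 74350.4 and 82759 TPM, the highest value in each library. The class of this and the next 3 rows is that of the annotation, and the origin of their reads was not tested. Gm23935 (chr16:11144125-11144181, plus strand), Gm24270 (chr9:56223715-56223771, minus strand) and Gm24245 (chr4:139338304-139338360, plus strand), of the same annotated class, followed at 40524, 33524 and 39928 TPM for Gm23935, and the 3 rows differed from each other by at most 2.2 TPM in any library. The transcript of these 3 rows in GENCODE M21 (build GRCm38) is shown because these few bases took so much of the scale on which every other gene is read, and because the 3 rows are 1 sequence.
Gm23935, Gm24270 and Gm24245: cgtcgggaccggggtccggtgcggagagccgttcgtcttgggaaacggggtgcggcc
Together the 3 identical rows held 12.2%, 10.1% and 11.98% of the TPM of libraries 1, 2 and 3, and with Mir6236 20.7%, 17.5% and 20.3%, a mean of 19.5% ± 1.75. Reads of 1 sequence cannot be assigned to 1 of 3 loci, so each of the 3 values is a part of a sum rather than a level of that locus. Near copies were listed far lower: Gm24187 (chr13:9834469-9834525, minus strand) differs by G11A and was listed at 0, 0 and 53.6 TPM, and Gm23388 (chr8:85112012-85112068, minus strand) differs by G2T, C16G, G21T and G48T and was listed at 49.2, 0 and 0 TPM, with positions counted from 1 at the 5′ end of Gm23935.

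TPM divides by length, so transcripts of this size weigh far more in it than in the sequenced material. Weighting each member's TPM by its longest annotated transcript, which approximates the share of sequenced bases, gave the class annotated as microRNA 0.981% in place of 22.7% and protein-coding members 95.4% in place of 65.0%. On that scale Actb held 1.16%, S100a9 0.564%, Mir6236 0.503%, S100a8 0.390% and the 3 identical rows 0.328%. Of the 30 most abundant members 21 were protein-coding, 5 were annotated as microRNA, 2 as pseudogenes, 1 as lincRNA and 1 as rRNA. The lincRNA Gm29408 (rank 6, 13936, 17175 and 22422 TPM) and Gm44337 (rank 16, 2173, 3481 and 4819 TPM), annotated as a microRNA of 114 nt, were lowest in library 1 and highest in library 3. CT010467.1, annotated as rRNA (rank 22, 3562, 2092 and 2818 TPM), had the opposite end high, with library 1 highest and library 2 lowest. The pseudogenes Gm12895 and Gm12896 were listed at equal values, 4012, 3476 and 3599.8 TPM each.

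Of the 564 members of the microRNA class 222 carried a microRNA symbol, and 201 of these had a mature sequence in RefSeq (GRCm38.p6). These rows can hold fragments of a precursor or of a host transcript, so their TPM is not a measure of the mature microRNA. The mature forms of 3 of the 4 most abundant named microRNA genes and of a pair with a common seed are shown, each 5′ to 3′ with the seed, bases 2 to 8, in capitals.
mmu-miR-142b: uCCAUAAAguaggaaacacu
mmu-miR-5125: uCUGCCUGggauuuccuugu
mmu-miR-1938: cGGUGGGAcuuguaguucgguc
mmu-miR-212-3p: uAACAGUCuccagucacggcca
mmu-miR-132-3p: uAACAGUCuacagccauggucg
Mir142b, from a locus expressed in blood cells, was listed at 1515, 2300.2 and 2231 TPM, lowest in library 1. Mir5125 was listed at 714, 536 and 1209.5 TPM, highest in library 3, and Mir1938 at 412, 608 and 359.6 TPM, highest in library 2. Mir212 and Mir132, neighbours on chromosome 11 whose mature forms share the seed AACAGUC, were listed at 253, 505 and 408 TPM for Mir212 and 142, 338 and 141 TPM for Mir132, both highest in library 2. Members of this class had a median CV of 101.2%, against 19.0% for protein-coding members.

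Abundance was concentrated in few genes. The 100 most abundant members by mean held 46.0%, 45.2% and 42.8% of TPM in libraries 1, 2 and 3, a mean of 44.7% ± 1.68. Library 1 needed 143 genes to reach 50% of its TPM, library 2 needed 151 and library 3 needed 187, so library 3 was the least concentrated. By ranges of mean TPM, 109 members of at least 1000 TPM held 45.6% of all TPM, 1172 members of 100 to 1000 TPM held 31.5%, 5973 members of 10 to 100 TPM held 19.2%, and 8367 members of 1 to 10 TPM held 3.27%. Of the 100 most abundant members 76 were protein-coding and 18 were at most 300 nt long. Any pair of libraries shared 81 to 88 of its 100 most abundant genes, and 74 were in that set in all 3.

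Past S100a9 and S100a8 the protein-coding members of the first 30 included mitochondrially encoded genes and genes of the cytoskeleton, iron storage, stress response and granules. mt-Atp8, a short mitochondrially encoded subunit of ATP synthase, was listed at 16125, 16578 and 9994 TPM and mt-Nd4l, a short subunit of complex I, at 5123, 5606 and 3489.5 TPM, both lowest in library 3. Actb, cytoplasmic actin, was listed at 12256, 11239.7 and 12547 TPM with a CV of 5.71%. Dusp1, a phosphatase that turns off MAP kinases, was listed at 3217, 4555 and 4144 TPM and was lowest in library 1. Fth1 and Ftl1, the chains of ferritin, were listed at 3568, 4632 and 3436 TPM for Fth1 and 2877, 3239 and 2634 TPM for Ftl1, both highest in library 2. Retnlg, a secreted resistin-like protein of neutrophils, was listed at 2889, 4062 and 2258 TPM, again highest in library 2 and lowest in library 3. Of the actin-binding proteins, Tmsb4x, which holds actin monomers, had a mean of 3364 ± 464 TPM (SD, n = 3), Lcp1, which bundles filaments, 2580.5 ± 54.1 TPM and Cotl1 2381 ± 254 TPM. Rac2, a GTPase of blood cells, had a mean of 2596 ± 258 TPM. Lcp1 had the narrowest spread of the 30, a CV of 2.098%, and Ltf the widest, 47.3%.

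**Figure D2:**
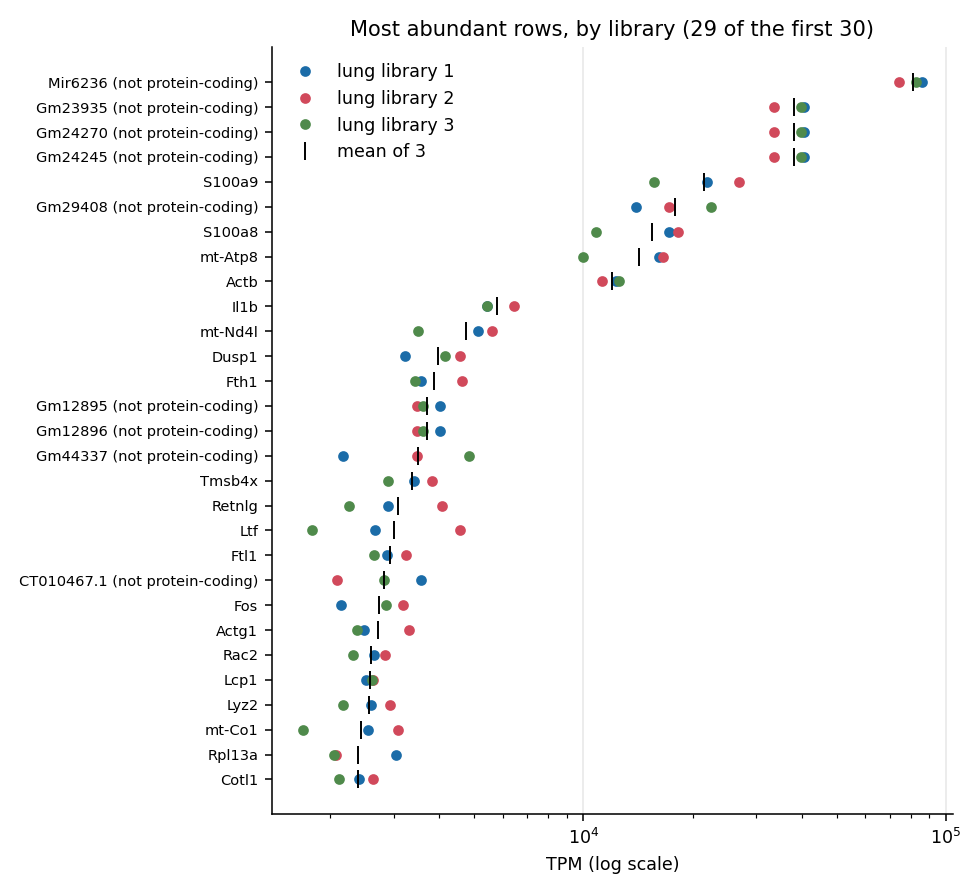
TPM (log scale) of the 30 most abundant members, 1 of which is not shown, with 1 point for each lung library and a black tick for the mean of 3. Mir6236 and 3 rows of identical sequence stand above all protein-coding genes, S100a9 and S100a8 lead the protein-coding genes, and points of Ltf, Gm44337 and CT010467.1 are widely spread.

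The granule proteins differed by granule class. Of 16 genes listed for the secondary (specific) granules, all were members, and their sum was 13397, 17532 and 10021 TPM, 1.37% ± 0.376 of a library. This list also holds Cebpe, a transcription factor, and Ltb4r1, an attractant receptor, which are not granule proteins. Ltf, the iron-binding lactoferrin, led with 2656, 4559 and 1786 TPM in libraries 1, 2 and 3. Lyz2, lysozyme, followed at 2584, 2925 and 2175 TPM. Ngp, a cathelicidin-like granule protein, was listed at 1292, 2064 and 740.0 TPM, and Hp, haptoglobin, had a mean of 1499 ± 248 TPM. All 4 were highest in library 2 and lowest in library 3. Camp, the precursor of the cathelicidin peptide, was listed at 394, 616 and 184 TPM in the same order. Over the list 12 of 16 genes were highest in library 2 and 12 lowest in library 3, and the counts were 14 and 14 after scaling the libraries by a trimmed mean and 12 and 12 after quantile normalisation.

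By contrast, the genes of the primary (azurophilic) granules, which neutrophils transcribe early in their maturation, were low. The sum over all 12 listed genes was 239, 241 and 203 TPM, and the 7 members had a median of 5.93 TPM. Mpo, myeloperoxidase, was listed at 0.541, 1.06 and 0.707 TPM. Elane, neutrophil elastase, was listed at 1.41, 0.421 and 1.22 TPM. The serine protease Ctsg, cathepsin G, had 0.456, 0.0685 and 0.417 TPM, and Bpi, which permeabilises bacteria, 0.0295, 0 and 0.0294 TPM. None of these 4 reached 2 TPM in any library. Prtn3, proteinase 3, was listed at 3.12, 4.45 and 7.29 TPM and Fcnb, a ficolin, at 6.67, 7.21 and 3.904 TPM. Of 12 genes of the list 7 were members, and those above 10 TPM in every library were Ctsc, Cd63 and Serpinb1a, which other cells and granules also use, with means of 89.1 ± 16.99, 66.4 ± 15.6 and 56.1 ± 14.2 TPM. The ratio of Ltf to Mpo lay between 2527 and 4905, and it is imprecise because Mpo lay near or under the limit.

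Genes of the tertiary granules and secretory vesicles, which neutrophils release readily, were members in 9 of 10 and 8 of 10 cases. Mmp9, the gelatinase of tertiary granules, was listed at 982, 1032 and 1049 TPM and Mmp8, neutrophil collagenase, at 263, 391 and 263 TPM, a ratio of 2.64 to 3.99. Pglyrp1, which binds bacterial peptidoglycan, was listed at 869, 978 and 621 TPM, lowest in library 3. Adam8, a membrane metalloproteinase, was listed at 535, 849.6 and 871 TPM, lowest in library 1. As TPM, 5 of the 9 tertiary granule members were highest in library 2 and 4 in library 3, but after trimmed-mean scaling 8 were highest in library 2 and 7 lowest in library 3, and after quantile normalisation 4 were highest in library 2 and 4 in library 3. Their order thus depended on the scaling. Among secretory vesicle genes Cd14, a co-receptor for lipopolysaccharide, was listed at 788, 1062 and 631 TPM, highest in library 2. Itgb2, the beta chain of leukocyte integrins, was listed at 583, 659.9 and 665 TPM and was more even. Mme and Alpl of that list were under 1 TPM in every library.

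The list of alarmins and antimicrobial proteins, all 17 of them members, held 5.82%, 6.98% and 4.03% of TPM in libraries 1, 2 and 3. Beside S100a8 and S100a9, S100a11 and S100a6, calcium-binding proteins of many cell types, were listed at 1945, 2380.0 and 1623 TPM for S100a11 and 2052, 2386 and 1355 TPM for S100a6. Lcn2, which binds bacterial siderophores, was listed at 1229, 1587 and 836 TPM and Slpi, an inhibitor of elastase, at 1507, 1613 and 955 TPM. Of the 17 genes 14 were highest in library 2 and 14 lowest in library 3. After trimmed-mean scaling these counts were 15 and 16, and after quantile normalisation 12 and 15. S100a4 and S100a10 differed from this pattern and were highest in library 1, at 195, 85.4 and 105 TPM for S100a4 and 100.1, 73.99 and 75.3 TPM for S100a10. As TPM Chil3 differed too, highest in library 3 and lowest in library 2, at 679, 669 and 694 TPM, a CV of 1.84%. Its order depended on the scaling, since 0 of the 17 genes were highest in library 3 after trimmed-mean scaling.

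The promoters of the calprotectin genes and of Il1b are shown because they belong to 3 of the 5 most abundant nuclear protein-coding genes. The sequences are from RefSeq (GRCm38.p6), 250 bases before to 50 bases after the annotated start, 5′ to 3′ on the strand of the gene, with each TATAAA in capitals: S100a8 at chr3:90668821-90669120 (plus strand), S100a9 at chr3:90695672-90695971 (minus strand) and Il1b at chr2:129371090-129371389 (minus strand).
S100a8: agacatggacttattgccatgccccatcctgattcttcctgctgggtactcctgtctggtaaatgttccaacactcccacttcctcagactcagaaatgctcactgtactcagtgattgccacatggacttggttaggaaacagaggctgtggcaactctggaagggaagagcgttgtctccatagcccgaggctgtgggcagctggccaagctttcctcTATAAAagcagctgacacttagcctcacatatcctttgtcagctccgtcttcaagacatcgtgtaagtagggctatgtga
S100a9: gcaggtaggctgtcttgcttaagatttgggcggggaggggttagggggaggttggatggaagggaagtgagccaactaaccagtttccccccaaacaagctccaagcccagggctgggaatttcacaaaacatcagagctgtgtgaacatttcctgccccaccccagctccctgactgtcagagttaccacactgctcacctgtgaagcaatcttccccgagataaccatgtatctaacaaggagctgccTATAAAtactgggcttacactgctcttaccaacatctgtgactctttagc
Il1b: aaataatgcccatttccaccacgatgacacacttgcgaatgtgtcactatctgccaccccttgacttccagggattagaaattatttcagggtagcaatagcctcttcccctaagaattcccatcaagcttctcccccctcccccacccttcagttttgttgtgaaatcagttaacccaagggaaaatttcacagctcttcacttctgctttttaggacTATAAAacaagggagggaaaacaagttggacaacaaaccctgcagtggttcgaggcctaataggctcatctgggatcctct
The letters TATAAA, searched on the strand of the gene, began between 40 and 15 bases before the start in S100a8 and Il1b. In S100a9 they lay outside this window, beginning at the annotated start itself. Of the 100 most abundant protein-coding members 69 had a promoter in the table, and 7 of their 81 promoters (8.64%) held TATAAA in the window, those of S100a8, Il1b, Fos, Vim, H2-D1, Ddx5 and Btg1. The share was 2.28% for the next 900 genes by abundance, 1.11% for the other protein-coding members and 2.11% for all 32851 promoters of the table. A match is a description of letters and not a binding site.

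The secreted signals of the profile were dominated by few genes. Of 28 inflammatory cytokine genes 20 were members, and Il1b made up most of their sum of 6379, 7609 and 6467 TPM. Osm, oncostatin M, was listed at 281, 367 and 268 TPM. Il1rn, which blocks the interleukin 1 receptor, was listed at 158, 183 and 159.8 TPM, a small part of the level of Il1b. Il1a, the sister cytokine of Il1b, was far lower, at 3.88, 3.03 and 3.71 TPM. Csf1, the macrophage growth factor, had a mean of 148 ± 34.6 TPM. The classical inflammatory cytokines Tnf and Il6 had means of 11.7 ± 0.365 and 1.62 ± 0.102 TPM. The regulatory cytokine Il10 was under 1 TPM in every library, and Csf2 and Ifnb1 were listed at 0.

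Most of the chemokine ligand RNA came from 2 genes. Cxcl2, a neutrophil attractant and ligand of Cxcr2, was listed at 1949.6, 2024 and 1792 TPM. Ccl6, a chemokine of myeloid cells, was listed at 709, 758 and 742 TPM. Both had narrow spreads, with CVs of 6.17% and 3.37%. Ccl9 and Ccl4 followed with means of 93.8 ± 15.2 and 29.2 ± 8.16 TPM. Cxcl1 and Cxcl3, also ligands of Cxcr2, were far below Cxcl2, with means of 9.74 ± 0.814 and 12.4 ± 1.798 TPM. Of 32 ligands 22 were members, and Ccl19 and Ccl20 were listed at 0. The low members of the list leaned to library 1: 14 of 22 were highest there, with 14 also after trimmed-mean scaling and 14 after quantile normalisation.

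Receptors for attractants were members in 22 of 28 cases, with a sum of 2475, 2613 and 2650.1 TPM. After Cxcr2 came Cxcr4, the receptor that holds neutrophils in the marrow, at 377, 504 and 476 TPM, lowest in library 1. C5ar1, the receptor for complement C5a, was listed at 394, 398 and 416 TPM and differed little between libraries, with a CV of 2.88%. Ccrl2, an atypical receptor that presents chemerin, had a mean of 264 ± 14.4 TPM. Cxcr1 was listed at 42.5, 51.7 and 50.1 TPM, and Cxcr2 exceeded it by 13.2 to 16.3 times. The formyl peptide receptors Fpr1 and Fpr2, which sense bacteria, had means of 86.7 ± 7.58 and 114 ± 18.7 TPM.

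Cytokine receptors were members in 25 of 26 cases. Behind Csf3r stood Il1r2, the decoy receptor for interleukin 1, at 816, 1232 and 1276 TPM. Il1r1, the signalling receptor for interleukin 1, was listed at 0.882, 1.57 and 0.344 TPM. The ratio of decoy to receptor ran from 783 to 3712, and it is imprecise because Il1r1 lay near or under the limit. Csf2rb, the shared beta chain of the GM-CSF receptor, was listed at 847, 1003 and 1107 TPM. Its alpha chain Csf2ra was less even, at 401, 774 and 473 TPM. As TPM, library 1 was lowest for 38.1% of all members. Of the 25 genes of this list 16 were lowest in library 1, with 16 after trimmed-mean scaling and 15 after quantile normalisation. The library in which most were highest depended on the scaling, with 17 in library 3 as TPM, 13 in library 2 after trimmed-mean scaling and 12 in library 3 after quantile normalisation.

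All 30 genes for pattern recognition and inflammasomes were members. Clec7a, a receptor for fungal beta-glucan, was listed at 861, 952 and 823 TPM. The C-type lectins Clec4e and Clec4d, which bind mycobacterial glycolipids, had means of 476 ± 41.2 and 439 ± 73.7 TPM. All 3 and Cd14 were highest in library 2. Myd88, the adaptor of Toll-like receptors, was listed at 416, 284 and 313 TPM, highest in library 1. Nlrp3, the inflammasome sensor, was listed at 159, 213 and 269.8 TPM, highest in library 3. Among Toll-like receptors Tlr13, which reads bacterial rRNA, and Tlr2, for lipoproteins, led with means of 205 ± 39.3 and 108 ± 8.89 TPM. Tlr9, for DNA, and Tlr3, for double-stranded RNA, were lowest, with means of 6.08 ± 1.64 and 1.403 ± 1.12 TPM.

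All 16 genes of Fc receptors and their signalling were members. The signalling adaptors led. Tyrobp was listed at 1382, 1522 and 1031 TPM and Fcer1g, the common gamma chain, at 753, 828 and 693 TPM, both lowest in library 3. Among the IgG receptors Fcgr3, of low affinity, was listed at 348, 379.5 and 343 TPM. Fcgr4 had a mean of 143 ± 4.48 TPM and Fcgr1, the high-affinity receptor, 8.58 ± 2.796 TPM. The kinases Fgr and Syk, which pass the signal on, had means of 330.2 ± 36.9 and 327 ± 34.6 TPM and were lowest in library 1.

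The NADPH oxidase, which makes superoxide, had all 8 of its listed genes among the members. Its catalytic membrane subunit Cybb was listed at 335, 296 and 331 TPM and its partner Cyba at 569, 579.9 and 431 TPM. The cytosolic subunits Ncf4 and Ncf1 had means of 265 ± 9.56 and 229 ± 42.97 TPM. Rac2, its GTPase in neutrophils, was listed at 2643, 2827 and 2317 TPM and exceeded the widely expressed Rac1 (259, 284 and 243 TPM) in every library. The list held 0.478% ± 0.0293 of TPM, with a median CV of 8.93%.

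Genes used to describe the suppressive activity of myeloid cells covered a wide range of levels, and 20 of 22 were members. Vsir, the inhibitory ligand VISTA, was listed at 906, 883 and 951 TPM with a CV of 3.78%. Entpd1, the ectonucleotidase CD39, was listed at 613, 831 and 845 TPM, lowest in library 1. Ptgs2, the inducible cyclooxygenase, was listed at 505, 589 and 557 TPM and exceeded the constitutive Ptgs1 (7.02, 10.3 and 13.1 TPM) by 42.4 to 71.9 times. These 3 were the most abundant of the list. Cd84, a marker proposed for MDSCs, had a mean of 218 ± 35.1 TPM. The mitochondrial arginase Arg2 was listed at 141, 185 and 152 TPM and the cytosolic Arg1, the arginase usually measured in MDSCs, at 2.04, 0.210 and 2.76 TPM. Cd274, the inhibitory ligand PD-L1, had a mean of 27.6 ± 1.89 TPM and Olr1, a receptor used to mark human PMN-MDSCs, 16.8 ± 1.21 TPM. Nos2, inducible nitric oxide synthase, had a mean of 5.07 ± 1.65 TPM. Ido1 was under 1 TPM in every library. The most abundant genes of the list were thus surface molecules and the cyclooxygenase, and the cytosolic arginase and nitric oxide synthase were near the limit.

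Genes of lipid mediators were led by Alox5ap, which presents arachidonic acid to 5-lipoxygenase, at 1841, 1921 and 1547 TPM, with Ptgs2 next. Pla2g7, which breaks down platelet-activating factor, had a mean of 412 ± 58.03 TPM and Alox5, 5-lipoxygenase itself, 159 ± 15.4 TPM. All 13 genes of the list were members. Hpgd, which degrades prostaglandins, was listed at 60.1, 30.2 and 33.5 TPM and was highest in library 1.

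**Figure D3:**
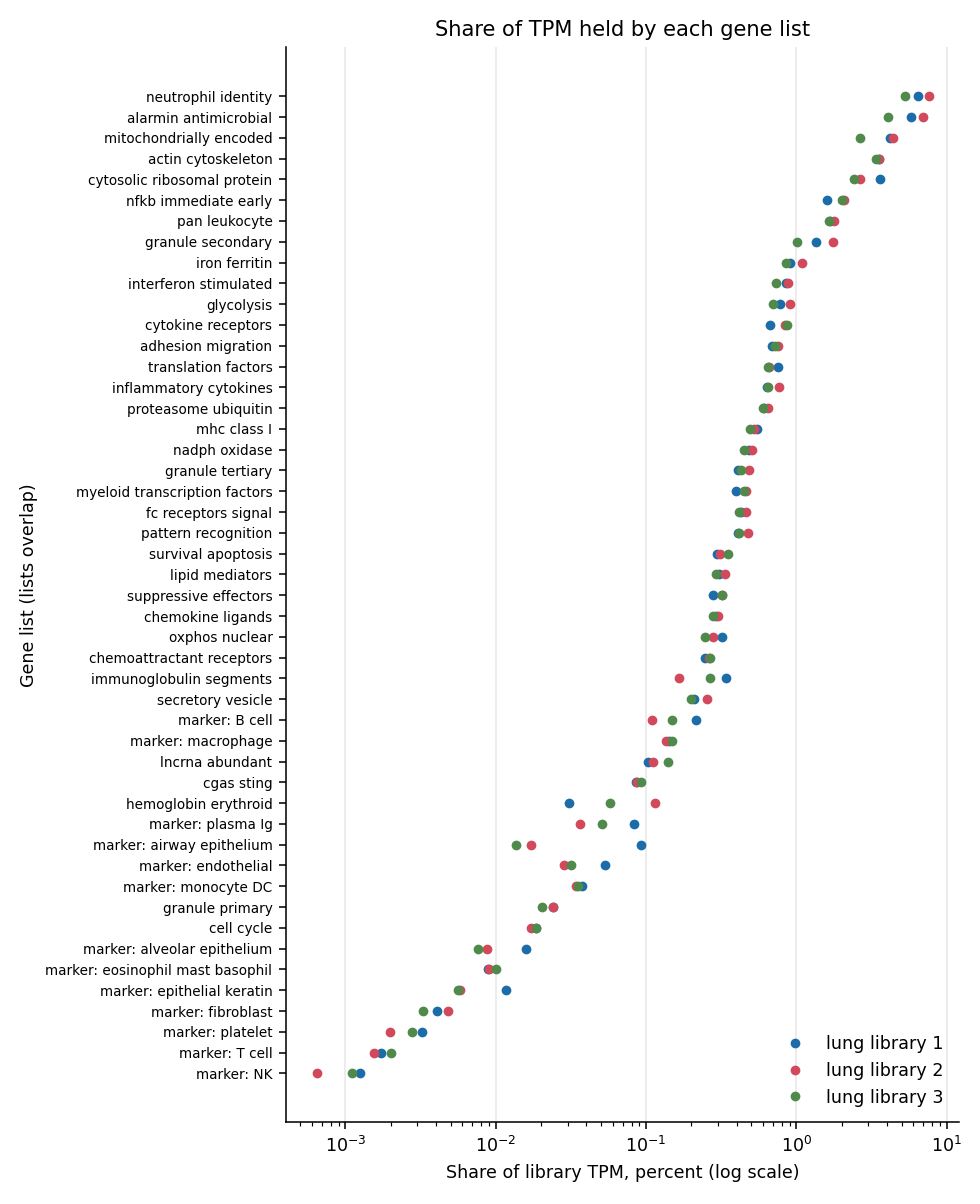
Share of library TPM (percent, log scale) held by each of 48 gene lists, with 1 point for each lung library. Lists overlap, and the shares run from neutrophil identity genes at 6.44% ± 1.17 (mean ± SD) to NK cell markers at 0.000997%.

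Immediate early genes and genes of the NF-kB response were abundant, and all 31 listed were members, holding 1.601%, 2.06% and 1.999% of TPM. Fos and Junb, subunits of the AP-1 factor, were listed at 2148, 3175 and 2856 TPM for Fos and 2109.5, 2708 and 2314 TPM for Junb. Zfp36, which destabilises cytokine mRNAs, was listed at 968, 1315 and 1399 TPM. These 3 and Dusp1 were lowest in library 1. Egr1, an early response factor, was listed at 424, 635 and 797 TPM and Nfkbia, the inhibitor of NF-kB, at 478, 576 and 611 TPM, in both cases with library 1 lowest and library 3 highest. Of the 31 genes 24 were lowest in library 1, with 20 after trimmed-mean scaling and 22 after quantile normalisation. Most were highest in library 2 after trimmed-mean scaling (21 genes) and in library 3 after quantile normalisation (20 genes), so the order of those 2 libraries depended on the scaling.

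Of 22 transcription factors of myeloid cells all were members. Cebpb, a factor of emergency granulopoiesis, was listed at 986, 1179 and 1045 TPM. Ets2 had a mean of 929 ± 116 TPM, and Spi1, the factor that sets myeloid fate, 589.6 ± 50.7 TPM. All 3 had CVs of at most 12.5%. Stat3, the signal transducer of G-CSF and interleukin 6, was listed at 367, 432 and 487 TPM, lowest in library 1. Cebpe and Gfi1, factors of granulocyte maturation, were low, at 11.9, 13.9 and 10.8 TPM for Cebpe and 0.657, 1.99 and 0.413 TPM for Gfi1. Irf8, a factor of monocytes, dendritic cells and B cells, was listed at 25.96, 13.03 and 23.04 TPM and was lowest in library 2.

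Interferon-stimulated genes were members in 44 of 46 cases. The small membrane proteins of the Ifitm family, which restrict virus entry, led: Ifitm1 was listed at 2607, 2487 and 1806 TPM, and Ifitm2 and Ifitm3 had means of 1716 ± 282 and 679 ± 133 TPM. All 3 were lowest in library 3. Samhd1, a dNTP hydrolase, was listed at 635, 678 and 714 TPM with library 3 highest. Isg15, a ubiquitin-like modifier, had a mean of 90.6 ± 16.1 TPM and Mx1, a GTPase against viruses, 1.96 ± 0.138 TPM.

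The series title names Lgals1 and Tmem173. Tmem173, which encodes STING, the adaptor of cytosolic DNA sensing, was listed at 17.3, 8.51 and 22.97 TPM at rank 5598, lowest in library 2, and Cgas, the DNA sensor upstream of it, at 1.22, 1.104 and 1.67 TPM. Lgals1, the glycan-binding galectin 1, was listed at 72.5, 47.8 and 41.2 TPM at rank 2265, highest in library 1. Tbk1, the kinase downstream of STING, had a mean of 35.8 ± 11.4 TPM and its target Irf3 23.1 ± 1.75 TPM. Trex1, which removes cytosolic DNA, had a mean of 35.1 ± 3.47 TPM. The CVs of Tmem173 (44.8%) and Lgals1 (30.6%) lay above the median of 17.5% for members of 10 to 100 TPM, so the libraries placed them less closely than most genes of that abundance.

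Survival genes were members in 19 of 20 cases. Mcl1, the survival factor on which neutrophils depend, was listed at 1045, 1325 and 1188 TPM. It exceeded its relatives Bcl2l1 (92.8, 160.2 and 125 TPM) and Bcl2 (3.38, 2.15 and 3.45 TPM) in every library. Pim1, a kinase induced by cytokines, was listed at 811, 585 and 912 TPM, and Birc3, an inhibitor of apoptosis, at 477, 507 and 738 TPM. Both were highest in library 3.

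All 25 genes of the cell cycle were members but low. Pcna, the replication clamp, led at 53.6, 53.4 and 54.6 TPM and Mcm2, a subunit of the replicative helicase, followed at 21.6, 21.1 and 21.3 TPM. Both had near equal values in the 3 libraries. Mki67, the proliferation marker, had a mean of 9.31 ± 1.82 TPM and Cdk1, the mitotic kinase, 2.49 ± 1.06 TPM. The list held 0.0180% ± 0.000727 of TPM.

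Genes of glycolysis, the main energy source of neutrophils, were all 19 members and held 0.780%, 0.902% and 0.700% of TPM. Gapdh was listed at 1809, 1958 and 1249.9 TPM. Pkm, pyruvate kinase, was listed at 1085, 1226 and 1053 TPM and Slc16a3, the lactate exporter, at 992, 1255 and 869.6 TPM. All 3 were highest in library 2 and lowest in library 3, as were Aldoa, an aldolase, with a mean of 774 ± 137 TPM, and Ldha, lactate dehydrogenase, with 511 ± 88.6 TPM. Library 2 was highest for 13 of 19 genes, 14 after trimmed-mean scaling and 12 after quantile normalisation. The nuclear genes of oxidative phosphorylation, 28 of 28 members, held less, 0.321%, 0.280% and 0.248%. Atp5b, a subunit of ATP synthase, led at 792, 737 and 674 TPM and Sdha, a subunit of complex II, followed at 339, 252 and 299.8 TPM. Of these 28 genes 25 were highest in library 1, with 23 after trimmed-mean scaling and 25 after quantile normalisation.

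Mitochondrially encoded genes had 34 members of 37 rows and held 4.19%, 4.397% and 2.67% of TPM, lowest in library 3. mt-Co1, the catalytic subunit of cytochrome oxidase, was listed at 2539, 3076 and 1681 TPM and mt-Cytb, of complex III, at 1162, 1458 and 661 TPM, while the ribosomal RNA mt-Rnr2 was listed at 2042, 1785 and 1759 TPM. Library 3 was lowest for 25 of the 34, with 26 after trimmed-mean scaling and 24 after quantile normalisation. The 2 mitochondrial rRNAs had a median CV of 8.05%, and mt-Rnr2 in library 3 lay close to its value in library 2.

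The actin cytoskeleton list had the smallest ratio between libraries of the 48 lists as TPM. Its 25 genes, all members, held 3.53%, 3.54% and 3.37% of TPM, a mean of 3.48% ± 0.0952, and the sum in the highest library was 1.05 times that in the lowest. After trimmed-mean scaling this ratio was 1.201, with 20 of the 25 genes lowest in library 3, against 15 as TPM and 12 after quantile normalisation. After Actb and Tmsb4x came Actg1, the gamma form of actin, at 2485, 3290.3 and 2378 TPM. Coro1a, which regulates actin in blood cells, was listed at 1942, 1948 and 1770.4 TPM. Was, the Wiskott-Aldrich protein that starts actin branching, was listed at 91.6, 90.3 and 91.7 TPM. Genes common to leukocytes had a sum of 16697, 17688 and 16372 TPM over 15 members, a ratio of 1.08 as TPM and 1.23 after trimmed-mean scaling. Ptprc, the leukocyte antigen CD45, was listed at 842, 926 and 959 TPM and Srgn, the granule proteoglycan serglycin, had a mean of 2226 ± 244 TPM. Among adhesion genes Selplg, a ligand of selectins, led at 1156, 1334 and 1107 TPM. Cd52 and Cd44, surface glycoproteins of leukocytes, had means of 978 ± 131 and 646 ± 55.2 TPM.

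Ribosomal protein genes, with 83 members of 90 rows, held 3.59%, 2.63% and 2.42% of TPM and were set apart by library 1. Rpl13a, the most abundant, was listed at 3042, 2079 and 2049 TPM and Rps15a at 1839, 1276 and 1128 TPM. Of the 83 members 78 were highest in library 1, and the count was 78 after trimmed-mean scaling and 80 after quantile normalisation. Eef1a1, the elongation factor that delivers transfer RNA, was listed at 2220.3, 1531 and 1756 TPM and was also highest in library 1. These genes are short, and near-identical pseudogenes are frequent among them, so the division of reads between copies is uncertain.

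Genes of iron handling other than ferritin included Slc40a1, the iron exporter ferroportin, at 733, 793 and 798 TPM and Slc11a1, the phagosomal metal transporter, at 439, 448 and 474 TPM. Both differed little between libraries, with CVs of 4.66% and 3.99%. Antigen presentation by MHC class I was represented by all 14 listed genes, led by the heavy chain H2-D1 at 1548, 1539 and 1335 TPM. B2m, the light chain, had a mean of 1401 ± 118 TPM and H2-K1, another heavy chain, 1008 ± 66.7 TPM. Malat1, the abundant nuclear lncRNA, was listed at 671, 880.2 and 1121 TPM, lowest in library 1 and highest in library 3, and Neat1, the scaffold of paraspeckles, at 27.9, 37.8 and 47.3 TPM in the same order.

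Marker lists of other cell types held small shares of TPM, and several of them differed between libraries. Not every gene of these lists was low, and Cd74, Csf1r and Apoe were listed above Ly6g in every library. The marker lists of other cell types together held 0.666%, 0.389% and 0.455% of TPM in libraries 1, 2 and 3. No gene of these lists was listed at 0 in all 3 libraries. B cell markers had the highest mean of these sums, with 2152, 1093 and 1497 TPM, all 12 of them highest in library 1 and lowest in library 2. After trimmed-mean scaling and after quantile normalisation all 12 remained highest in library 1. Cd74, the invariant chain of MHC class II, which other antigen-presenting cells also express, was listed at 935, 517 and 688 TPM and H2-Ab1, an MHC class II chain, at 367, 165 and 254 TPM. Cd79a, a part of the B cell receptor, was listed at 105, 49.9 and 64.1 TPM and Ms4a1, the B cell antigen CD20, at 34.9, 15.4 and 23.4 TPM. Igkc and Ighm, constant regions of immunoglobulin, were listed at 354, 157 and 196 TPM for Igkc and 329, 156 and 232 TPM for Ighm.

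Airway epithelium gave the widest contrast between libraries. Its 9 markers, all members, summed to 918, 171 and 137 TPM, and all 9 were highest in library 1, also after trimmed-mean scaling and after quantile normalisation. Scgb1a1, the club cell secretoglobin, was listed at 302, 72.04 and 61.7 TPM. Bpifa1, a secreted airway antimicrobial protein, was listed at 268, 19.9 and 25.8 TPM and Scgb3a2, another secretoglobin, at 141, 26.6 and 14.2 TPM. Foxj1, the factor of ciliated cells, had a mean of 1.17 ± 0.755 TPM. Without library 1 the means of Scgb1a1, Bpifa1 and Scgb3a2 were 66.9, 22.8 and 20.4 TPM, against 145, 105 and 60.4 TPM with it. Of the alveolar markers 8 of 10 were members, led by Sftpc, surfactant protein C, at 78.9, 40.8 and 32.4 TPM. Endothelial markers, 12 of 12 members, summed to 530.0, 286 and 315 TPM, with Cldn5, a tight junction protein, at 109, 53.001 and 69.5 TPM. Keratins and other epithelial genes, 10 of 10 members, summed to 117, 57.4 and 56.1 TPM, led by Krt19 at 50.3, 32.3 and 36.8 TPM. All members of these 3 lists were highest in library 1, with 1 alveolar gene highest in library 2 after quantile normalisation.

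Hemoglobin genes were instead highest in library 2. Hba-a2 and Hbb-bs, the alpha and beta chains of adult hemoglobin, were listed at 111, 493 and 255 TPM for Hba-a2 and 137, 477 and 234 TPM for Hbb-bs, and all 5 members of the erythroid list were highest in library 2 and lowest in library 1, also after both scalings. Without library 2 the mean of Hba-a2 was 183 TPM, against 286 TPM with it. Markers of T cells and NK cells were near the limit, with sums of 17.1, 15.4 and 20.1 TPM for T cells and 12.4, 6.43 and 11.04 TPM for NK cells, and Cd3e, a chain of the T cell receptor complex, was listed at 0.804, 0.725 and 1.27 TPM. Macrophage markers were even, with a sum of 1431, 1365 and 1476 TPM, of which Csf1r, the receptor of macrophage growth factor, gave 459, 396 and 459.7 TPM and Apoe, a lipid carrier, 399, 423 and 470.0 TPM. Adgre1, a surface antigen of macrophages, had a mean of 96.4 ± 19.1 TPM and C1qa, a complement gene of tissue macrophages, 9.52 ± 5.26 TPM. Among markers of monocytes and dendritic cells Ly6c2, which neutrophils also express, had a mean of 152 ± 28.9 TPM and Ccr2, a monocyte receptor, 17.1 ± 6.48 TPM. Siglecf, of eosinophils and alveolar macrophages, had a mean of 50.2 ± 7.42 TPM. Pf4, of platelets, and Col3a1, of fibroblasts, had means of 7.14 ± 2.199 and 9.37 ± 3.15 TPM.

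**Figure D4:**
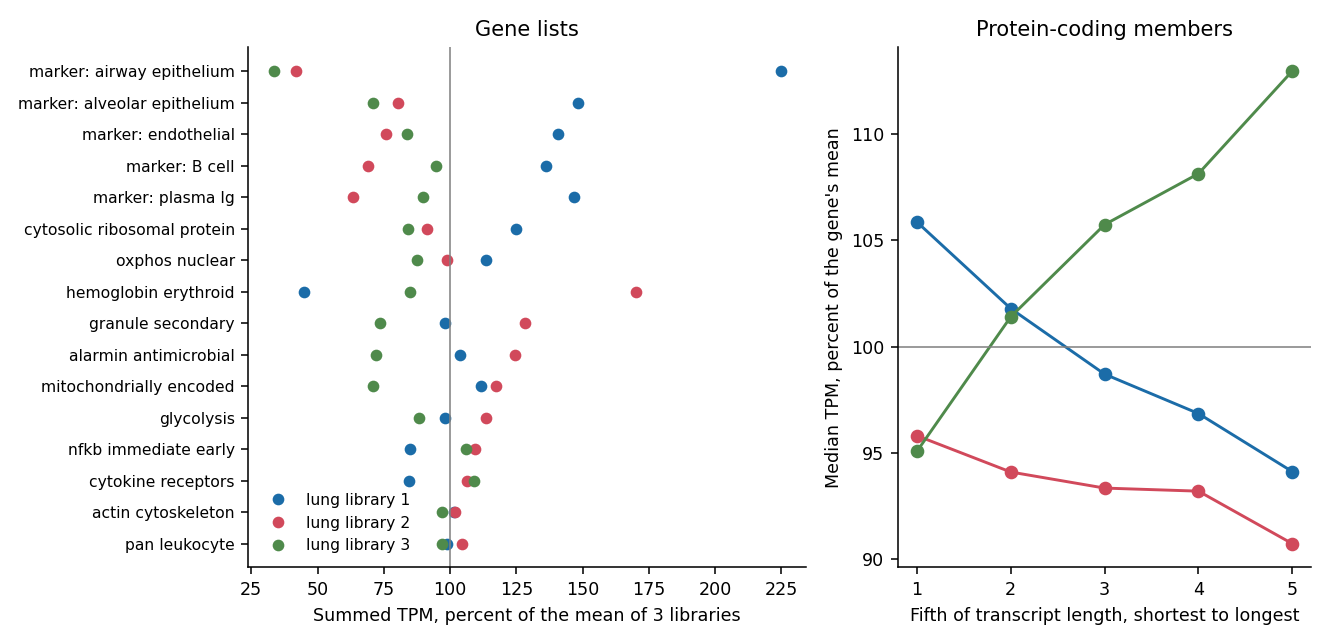
Left, summed TPM of 16 gene lists in each lung library as a percentage of the mean of 3 libraries. Right, median TPM of protein-coding members as a percentage of the gene's mean in 5 classes of transcript length; airway epithelium, B cell and ribosomal protein genes stand highest in library 1 (blue), hemoglobin and secondary granule genes in library 2 (red), and long transcripts in library 3 (green).

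The libraries also differed by transcript length. Protein-coding members were sorted by their longest annotated transcript into 5 classes of about equal size, from 69 to 1901 nt in the shortest to at least 5217 nt in the longest. In library 1 the median level, as a percentage of the gene's own mean, went from 106% in the shortest class to 94.1% in the longest, and in library 3 from 95.1% to 113%. Library 2 lay under 100% in every class, from 95.8% to 90.7%. In the longest class 63.4% of genes were highest in library 3, and in the shortest 46.4% were highest in library 1. Ribosomal protein, mitochondrial and S100 genes are short, and the part of length in the orders given above for these and all other lists was not tested. Nor was the part of other cell types in the values of genes that they share with neutrophils. As TPM, the B cell, endothelial and epithelial marker sums were highest in library 1, the hemoglobin and fibroblast sums in library 2, and the macrophage and T cell sums in library 3. After trimmed-mean scaling the macrophage sum was highest in library 1 instead.

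Over all members, as TPM, 47.0% were highest in library 3, 30.8% in library 1 and 22.2% in library 2. Library 1 was lowest for 38.1% of members, library 2 for 41.7% and library 3 for 20.2%. Among members of at least 50 TPM the shares lowest in libraries 1, 2 and 3 were 43.2%, 28.6% and 28.3%. The order by highest share depended on the scale. Trimmed-mean scaling had factors of 0.986, 0.942 and 1.08 for libraries 1, 2 and 3. After it, the shares highest in libraries 3, 1 and 2 were 33.4%, 33.8% and 32.8%. An order among the 3 libraries that rests on differences smaller than these factors depends on the scale in the same way.

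The spread between libraries was wider at low abundance. The median CV was 32.1% for members of 1 to 10 TPM, 17.5% for 10 to 100 TPM, 14.4% for 100 to 1000 TPM and 14.96% above 1000 TPM. Over all members it was 23.5%, with quartiles of 13.5% and 41.6%. Members listed above 0 in every library numbered 14338, and 1283 were listed at 0 in at least 1. Between pairs of libraries, Pearson's r across members on log2(TPM + 1) was 0.888, 0.876 and 0.879, and across protein-coding members 0.968, 0.965 and 0.971, where genes are not independent replicates. After adding 1 to both values, 12.7% to 12.8% of members differed over 2-fold in each pair. Adding 1 shrinks the ratios of low members, so the shares on TPM itself would be at least as high.

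**Figure D5:**
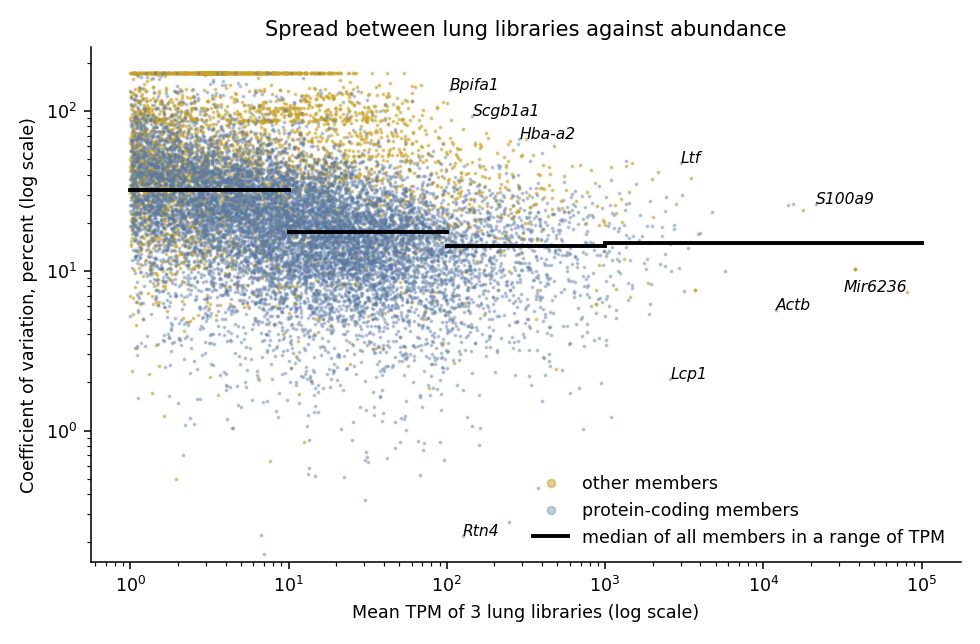
Coefficient of variation (percent, log scale) against mean TPM (log scale) for each member, with protein-coding members in blue, others in yellow, and black bars for the median in 4 ranges of TPM. The bars drop from 32.1% at 1 to 10 TPM to 14.4% at 100 to 1000 TPM, and the band along the top holds members listed above 0 in 1 library alone.

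Among the 2065 members of at least 50 TPM whose symbols were not those of predicted genes, pseudogenes, microRNAs or 5S copies, the narrowest spreads were all those of protein-coding genes. Rtn4, which shapes the endoplasmic reticulum, was listed at 126, 126 and 126 TPM. Cdc42se1, a small effector of Cdc42, was listed at 247, 249 and 248 TPM and Atp6ap1, an accessory subunit of the proton pump, at 375, 375 and 378 TPM. Their CVs were 0.219%, 0.267% and 0.438%. Sppl2a, an intramembrane protease, Tap2, a peptide transporter, Plet1, a surface protein, Wdr1, which takes actin filaments apart, Edem1, of protein quality control, Was, Narf, Vps37b, of the ESCRT machinery, and Cyb5r4, a reductase, completed the 12, with CVs of up to 1.004%. These 12 were taken from 2065 genes for their small spread, which is given as a description.

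The widest spreads at that abundance were those of airway, immunoglobulin, small nucleolar and mitochondrial transfer RNA genes. Bpifa1, Scgb3a2 and Scgb1a1 had CVs of 135%, 115% and 93.6%, in each case with library 1 high. The immunoglobulin joining segments Igkj5, Igkj1 and Ighj4 were listed at 118, 0 and 51.9 TPM for Igkj5, 106, 30.3 and 26.4 TPM for Igkj1 and 187, 128 and 433 TPM for Ighj4, highest in library 1 for the kappa segments and in library 3 for the heavy chain segment. Snord58b, Snora21 and Snord43, small nucleolar RNAs by symbol, of which Snord43 is annotated as a microRNA in M21, were listed at 107, 27.05 and 23.5 TPM for Snord58b, 40.1, 27.5 and 95.8 TPM for Snora21 and 86.5, 87.9 and 9.56 TPM for Snord43. The transfer RNAs mt-Tl1 and mt-Tq were listed at 102, 12.99 and 45.2 TPM for mt-Tl1 and 57.9, 185 and 69.1 TPM for mt-Tq, and Hba-a2 completed the 12 with a CV of 67.2%. Of the 12 genes 8 were of short classes other than protein-coding, and the other 4 belonged to the airway and erythroid lists.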

How the data were processed

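RNA-seq libraries of sorted lung PMN-MDSCs were described from 3 columns of a table with 55276 rows. The authors deposited TPM from Salmon 0.9.1 with the GENCODE mouse M24 transcripts as index, per the labels' design text. Reads that match several transcripts are shared out by a statistical model, so values of near-identical and very short genes are uncertain, and more of some transcripts means a smaller share for all others. The labels give 20000000 paired reads per library; TPM keeps no depth.

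The lung group and its replicate numbers were read from GEO's treatment field and titles. With 1 group no test was run. Means, SDs, CVs, ranks, shares and correlations were computed in Python 3.11.15 with numpy 2.4.6 and pandas 2.3.3. Of these steps only the CV and the trimmed-mean scaling factors were tested on simulated data. Of the rows 26 carried dates in place of symbols and 18 of these reached 1 TPM; they held 0.0680% to 0.0826% of a library and were left out. Rows listed at 0 in every lung library numbered 23046, and 16586 lay between 0 and 1 TPM. Classes, lengths and coordinates came from GENCODE M21 (GRCm38), an older release than M24, matched by symbol for 15371 members (98.4%) and not for 250.

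The members and the 48 gene lists were chosen with earlier results of these data known, so no list was tested. Named genes are the 30 most abundant members, up to 4 leading members of each list, the 6 lineage markers, the 12 widest and 12 narrowest CVs among members of at least 50 TPM of named classes, 2 genes on either side of the limit, genes of a list that complete a count, and the title genes. Other list members, Gm24187, Gm23388 and the microRNA genes were named after their values were seen. A few genes that this rule takes in, and some sequences, are not reported here. Alternatives were limits of 5 TPM and none, rescaling without mitochondrial or small RNA genes, trimmed-mean scaling (30% off each end) and quantile normalisation, pseudocounts of 1 and 0.1, and leaving out each library.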

Additional observations from a re-analysis of the deposited data

How the results depend on the processing

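The number of members was 9762 at a limit of 5 TPM and 32207 with no limit, and 15048 to 15607 without 1 library. The share of the 100 most abundant genes was 33.3% once small RNA and rRNA genes were removed and TPM rescaled, and 44.0% to 45.7% without 1 library. The median CV of 23.5% was 22.6% after trimmed-mean scaling, 22.2% after quantile normalisation, 18.5% at a limit of 5 TPM, 44.8% with no limit, and 18.7% to 19.8% without 1 library, where it comes from 2 values a gene. Expressed from the SD of log2 values it was 21.8% with a pseudocount of 1 and 26.1% with 0.1. Mean Pearson's r between libraries, 0.881, was 0.775 with a pseudocount of 0.1, 0.837 at a limit of 5 TPM and 0.939 with no limit. Rescaled without small RNA and rRNA genes, the shares of neutrophil identity, actin and ribosomal protein genes were 8.62%, 4.67% and 3.87%, and actin held 3.62% without mitochondrial genes. Of 47 list shares 40 moved by over 1 SD when small RNA and rRNA genes were removed and 4 when mitochondrial genes were removed. After trimmed-mean scaling 0 of 48 did so. Its factors are centred on 1, so a mean over the libraries could hardly move, and this count says nothing about the order of the libraries. By construction, means without 1 library stayed within 1 SD, for 144 of 144 list shares and 177 of 177 named gene means. Chosen after seeing the data, protein-coding members alone gave a median CV of 19.0%, and TPM rescaled to protein-coding genes gave neutrophil identity 9.84% and actin 5.34%. No paired analysis was possible because 1 group is described and no groups are compared.

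The absence of counts limits all values: low members cannot be told from counting noise, and levels of short or repeated sequences rest on Salmon's division of reads. With 3 libraries the SD of a single gene is itself imprecise.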
